A study of Homo sapiens with 6 samples.

Results

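The 10 globin genes of the human alpha and beta clusters were followed through 6 RNA-seq libraries: HBZ, HBM, HBA1, HBA2 and HBQ1 of the alpha cluster, and HBE1, HBG1, HBG2, HBD and HBB of the beta cluster. They are 10 of 61498 genes in the deposited tables and were matched by symbol to the deposited Ensembl identifiers. The set was selected on measured values, since an earlier reading of these data had found HBA1 high in the libraries labelled NCI-BL2171. Levels of the globin genes that set those libraries against the others are therefore given as a description, with no test.

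The libraries came from 3 untreated human cell lines, with 2 libraries from each. RPMI-8226-R is a derivative of RPMI-8226 that is resistant to the proteasome inhibitor bortezomib, RPMI-8226 is the parental multiple myeloma line, and NCI-BL2171 is a B-lymphoblastoid line. All 3 carry the cell type label B-lymphocytes. Total RNA was depleted of ribosomal RNA before sequencing. The labels do not tie the 2 libraries of a line to separate cultures, and every p-value rests on the spread between libraries that may be technical repeats. How RPMI-8226-R was selected is not given in the sources used here.

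Haemoglobin is built from a pair of alpha-type and a pair of beta-type chains, which are made from separate clusters on chromosomes 16 and 11. During development red cells switch from embryonic chains (zeta from HBZ, epsilon from HBE1) to fetal gamma chains (HBG1, HBG2) and then to adult delta and beta chains (HBD, HBB), while HBA1 and HBA2 make alpha chains in fetal and adult life. HBM and HBQ1 encode the minor alpha-type chains mu and theta. Each cluster is driven by distant enhancers bound by red cell factors such as GATA1, TAL1, KLF1 and NFE2, and BCL11A and ZBTB7A are known for keeping the fetal genes silent in adult red cells.

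All 10 genes had 3 exons in the reference transcripts examined here. In GENCODE 29 on GRCh38, the alpha cluster genes lie on the plus strand of chromosome 16, with HBZ at chr16:152687-154503, HBA2 at chr16:172876-173710, HBA1 at chr16:176680-177522 and HBQ1 at chr16:180453-181181. The reference transcript of HBM lies at chr16:165978-166768. The beta cluster genes lie on the minus strand of chromosome 11, and their reference transcripts are at chr11:5268352-5269945 for HBE1, chr11:5253190-5254811 for HBG2, chr11:5248079-5249859 for HBG1, chr11:5232838-5234648 for HBD and chr11:5225464-5227071 for HBB. The coding sequence without its stop codon was 426 bases in HBZ, HBA1, HBA2 and HBQ1, 423 bases in HBM and 441 bases in each beta-type gene.

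The first coding bases of the 4 kinds of chain that dominated the libraries labelled NCI-BL2171 are shown because they show how genes of a cluster differ in sequence. All sequences are from GENCODE 29 transcripts on GRCh38, coding strand, 5′ to 3′.
HBZ, coding bases 1 to 60: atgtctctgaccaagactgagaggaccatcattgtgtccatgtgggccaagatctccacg
HBA1, coding bases 1 to 60: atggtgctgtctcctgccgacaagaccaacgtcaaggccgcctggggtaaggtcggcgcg
HBE1, coding bases 1 to 60: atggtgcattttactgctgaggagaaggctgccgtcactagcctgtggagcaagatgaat
HBG1, coding bases 1 to 60: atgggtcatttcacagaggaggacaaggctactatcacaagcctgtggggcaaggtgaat
Over the whole coding sequence HBZ and HBA1 were 69.6% identical and HBE1 and HBG1 were 83.5% identical. HBD and HBB were closer, at 93.0%.

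The 2 alpha genes and the 2 gamma genes are near copies of each other, which limits how reads could be divided between them. Their last coding bases are shown for that reason, with the base that differs in capitals.
HBA1, coding bases 366 to 426: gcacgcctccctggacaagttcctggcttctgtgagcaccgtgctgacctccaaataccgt
HBA2, coding bases 366 to 426: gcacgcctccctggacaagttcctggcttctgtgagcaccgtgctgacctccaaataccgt
HBG1, coding bases 380 to 440: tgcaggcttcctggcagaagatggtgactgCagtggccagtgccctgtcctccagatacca
HBG2, coding bases 380 to 440: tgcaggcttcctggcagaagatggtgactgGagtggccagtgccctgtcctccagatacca
The coding sequences of HBA1 and HBA2 were 100% identical. Those of HBG1 and HBG2 were 99.5% identical and differed by C227T and C410G, with the HBG1 base first and positions counted from the first base of the start codon. C410G is the base behind the alanine of the HBG1 chain and the glycine of the HBG2 chain. Of the 31-base words in the HBA1 transcript, 82.3% also occurred in HBA2. Of those in the HBG2 transcript, 73.6% also occurred in HBG1 and 78.9% in ENSG00000284931, an annotated gene at chr11:5248270-5254783 that spans both gamma genes. Values for single copies are therefore uncertain, and sums over each pair are given beside them. Of the 31-base words in the HBE1 transcript, 88.05% also occurred in ENSG00000239920, an annotated gene at chr11:5254392-5678434. That gene had 1287 and 1052 estimated reads in the libraries labelled NCI-BL2171, so values for HBE1 are uncertain too.

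The 6 tables held 23952370 to 29052199 estimated reads, so 3 reads correspond to 0.103 to 0.125 counts per 1000000 reads. The cell type label was checked against marker genes. In the libraries labelled NCI-BL2171, 11 of 13 red cell markers reached 1 TPM (a level scaled to gene length and library size). The 13 summed to 1436 to 1442 TPM there. The 10 B cell markers summed to 3.28 to 5.75 TPM and 10 plasma cell markers to 58.4 to 62.3 TPM. MS4A1, PAX5, BLK, JCHAIN and IRF4 were at 0 there. Markers of megakaryocytes summed to 8.52 to 10.5 TPM and those of granulocytes and monocytes to 50.1 to 52.4 TPM. The same markers summed to 72.1 to 74.6 TPM (red cell), 180 to 187 TPM (B cell) and 43132 to 44482 TPM (plasma cell) in RPMI-8226-R, and to 53.7 to 55.0, 5488 to 5648 and 72378 to 75045 TPM in RPMI-8226. Of the 13 red cell markers, only 1 reached 1 TPM in RPMI-8226-R and 2 in RPMI-8226. The data thus go against the B-lymphocyte label of these libraries, which are called the libraries labelled NCI-BL2171 throughout. In bulk RNA, fewer cells of a type and less RNA per cell cannot be told apart.

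The embryonic and fetal beta-type genes were the most abundant globin genes in the libraries labelled NCI-BL2171. HBG2, one of the fetal gamma genes, stood at 0.087 and 0 TPM in RPMI-8226-R, 2.43 and 0.073 TPM in RPMI-8226, and 29207 and 27852 TPM in the libraries labelled NCI-BL2171. It ranked 1 among all genes by TPM in both of those libraries. HBG1, the other gamma gene, was at 0 and 0 TPM in RPMI-8226-R, 1.46 and 0.218 TPM in RPMI-8226, and 13585 and 13176 TPM in the libraries labelled NCI-BL2171, where it ranked 2. HBE1, the embryonic epsilon gene, was at 0 and 0.050 TPM in RPMI-8226-R, 0.887 and 0.248 TPM in RPMI-8226, and 12228 and 11711 TPM in the libraries labelled NCI-BL2171, where it ranked 3. The libraries labelled NCI-BL2171 did not overlap those of the other lines for any of these genes. The share of all genes without such overlap is not given here, so overlap between lines is a description only, here and below.

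The adult beta-type genes were far lower. HBD, the gene for the minor adult delta chain, was at 0 and 0 TPM in RPMI-8226-R, 0.232 and 0.481 TPM in RPMI-8226, and 102 and 97.2 TPM in the libraries labelled NCI-BL2171. The annotated span of HBD contains the pseudogene HBBP1, so the HBD level is uncertain. HBB, which encodes the main adult beta chain, was at 0 and 0 TPM in RPMI-8226-R, 0.530 and 0.914 TPM in RPMI-8226, and 0.778 and 1.63 TPM in the libraries labelled NCI-BL2171. HBB was thus the beta-type gene on which the libraries labelled NCI-BL2171 and RPMI-8226 overlapped. In estimated reads, HBB had 0 and 0 in RPMI-8226-R, 8 and 8 in RPMI-8226, and 11 and 20 in the libraries labelled NCI-BL2171. The last of these were 0.00193% (exact 95% interval 0.000962% to 0.00345%) and 0.00426% (0.00260% to 0.00658%) of all beta-type reads. These intervals and the read floors cover counting error only.

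The alpha cluster followed a different order. HBA1 was at 91.0 and 102.9 TPM in RPMI-8226-R, 21.8 and 26.3 TPM in RPMI-8226, and 3641 and 3497 TPM in the libraries labelled NCI-BL2171. HBA2 was at 67.9 and 71.6 TPM in RPMI-8226-R, 27.04 and 27.4 TPM in RPMI-8226, and 3267 and 3174 TPM in the libraries labelled NCI-BL2171. Both alpha genes were above 20 TPM in all 6 libraries, and no 2 lines overlapped for either of them. HBZ, the embryonic zeta gene, was at 0 in every RPMI-8226-R and RPMI-8226 library and at 1623 and 1366 TPM in the libraries labelled NCI-BL2171. HBQ1, the theta gene, was also at 0 in the 4 libraries of RPMI-8226-R and RPMI-8226, and at 50.7 and 41.2 TPM in the libraries labelled NCI-BL2171. HBM, the mu gene, had 0 reads in 5 libraries and 2 reads in 1 RPMI-8226 library.

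**Figure D1:**
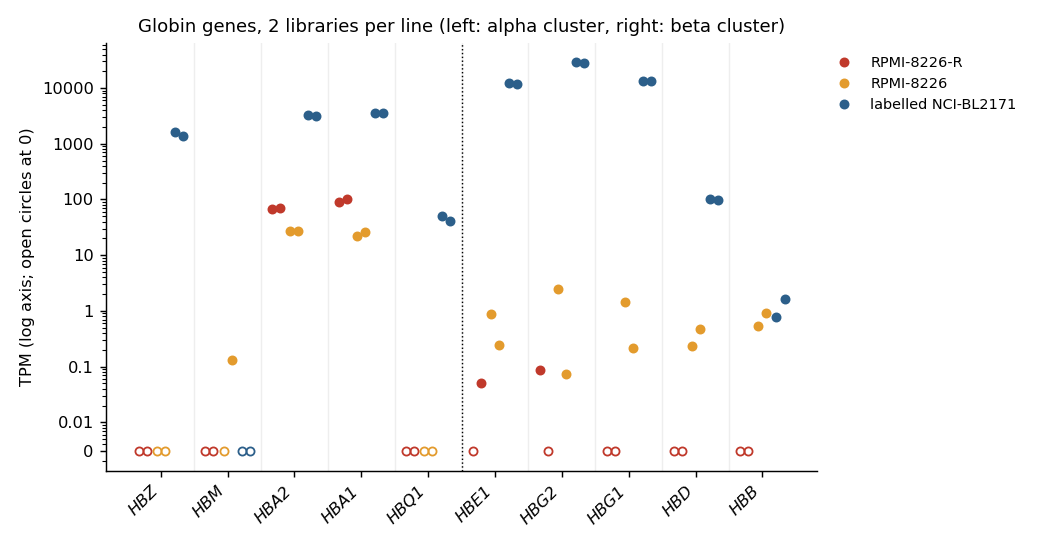
Level of each globin gene in TPM (vertical log axis, with 0 drawn as open circles at the bottom) for 2 libraries each of RPMI-8226-R, RPMI-8226 and the line labelled NCI-BL2171, genes in chromosomal order within each cluster. HBA1 and HBA2 are above 20 TPM in all 6 libraries, HBZ and HBQ1 are above 0 only in the libraries labelled NCI-BL2171, and HBB is below 2 TPM everywhere.

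The order of mean levels in the libraries labelled NCI-BL2171 ran from HBG2 (28529 ± 958 TPM, SD, n = 2) through HBG1 (13380 ± 289), HBE1 (11970 ± 366), HBA1 (3569 ± 102), HBA2 (3221 ± 66.1), HBZ (1495 ± 181), HBD (99.6 ± 3.46), HBQ1 (45.9 ± 6.75) and HBB (1.20 ± 0.599) to HBM at 0 TPM. No neighbours in this order overlapped between the 2 libraries. By estimated reads part of the order changed: HBE1 had 175369 and 147045 reads, and HBG1 had 166034 and 136652, so HBE1 was above HBG1 in both libraries, the reverse of their order in TPM. With each pair of copies summed, the gamma genes stood at 41909 ± 1247 TPM and the alpha genes at 6790 ± 168 TPM (SD, n = 2). HBE1 lay between them.

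All 10 genes together made up a small part of the RNA in RPMI-8226-R and RPMI-8226 and a large part in the libraries labelled NCI-BL2171. They summed to 159 and 175 TPM in RPMI-8226-R, 54.4 and 55.8 TPM in RPMI-8226, and 63705 and 60916 TPM in the libraries labelled NCI-BL2171. The last 2 values are 6.37% and 6.09% of the TPM total. By estimated reads the globin genes took 2.65% and 2.42% of the libraries labelled NCI-BL2171, against under 0.01% of each library of the other lines.

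The 3 lines also differed in which globin genes those reads came from. HBA1 and HBA2 held 99.95% (exact 95% interval 99.73% to 99.999%) and 99.96% (99.76% to 99.999%) of globin reads in RPMI-8226-R. They held 92.7% (90.7% to 94.3%) and 96.5% (95.1% to 97.6%) in RPMI-8226, and 14.7% (14.6% to 14.8%) and 14.8% (14.7% to 14.9%) in the libraries labelled NCI-BL2171. For every 1000 reads of the alpha genes, the embryonic and fetal genes HBE1, HBG1 and HBG2 had 0.478 and 0.430 reads in RPMI-8226-R, 62.6 and 12.005 reads in RPMI-8226, and 5448 and 5448 reads in the libraries labelled NCI-BL2171. The libraries labelled NCI-BL2171 gave nearly equal ratios, whereas those of RPMI-8226 differed by a wide margin.

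**Figure D2:**
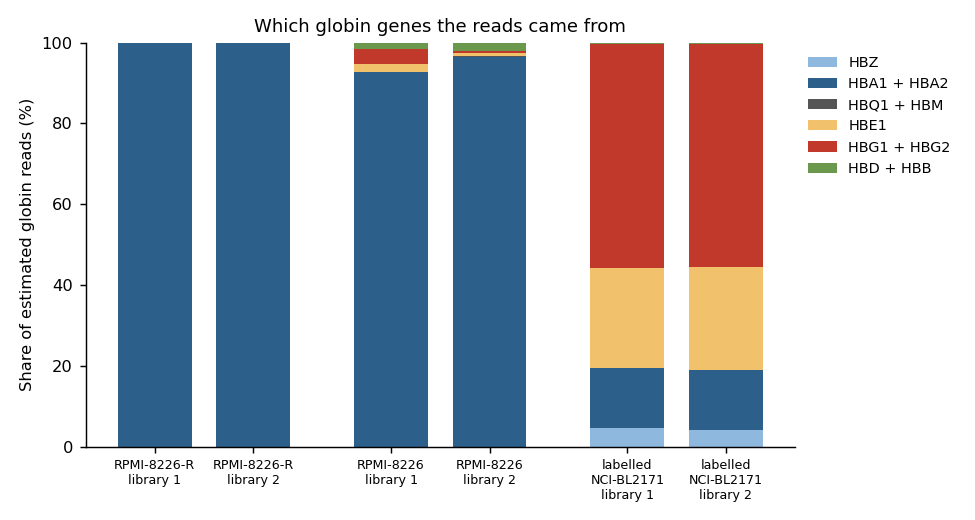
Share of estimated globin reads (percent, bars stacked from 0 to 100) that fell on each gene or gene pair, one bar per library. HBA1 and HBA2 fill over 90% of the bar in RPMI-8226-R and RPMI-8226, and HBG1 and HBG2 with HBE1 fill most of it in the libraries labelled NCI-BL2171.

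Within the libraries labelled NCI-BL2171 the alpha-type and beta-type sums were unequal. The alpha-type sum was 0.154 ± 0.00198 of the beta-type sum in TPM (SD, n = 2). HBZ made up 17.9% ± 1.41 of the alpha-type sum and HBQ1 0.550%, and HBA1 with HBA2 made up the rest. HBE1 made up 22.2% ± 0.0138 of the beta-type sum, HBG1 and HBG2 together 77.6% ± 0.0135, and the adult genes HBD and HBB together 0.187%. In RPMI-8226-R the alpha-type sum exceeded the beta-type sum by 1827-fold and 3490-fold, and in RPMI-8226 by 8.82-fold and 27.8-fold in TPM. In RPMI-8226-R these ratios rest on 1 beta-type read in each library.

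These proportions depended on the scale. Counted in estimated reads, the alpha-type sum was 0.239 ± 0.00531 of the beta-type sum, HBZ was 23.0% ± 1.66 of alpha-type reads, and HBE1 was 31.04% ± 0.438 of beta-type reads (SD, n = 2). The ratio within the gamma pair shifted too. HBG2 exceeded HBG1 by 2.13-fold in TPM and 1.36-fold in reads, since the deposited effective length was 267 and 256 bases for HBG2 and 418 and 402 bases for HBG1. Under every scale tried, beta-type exceeded alpha-type, HBG1 and HBG2 summed exceeded HBE1, and HBA1 with HBA2 exceeded HBZ.

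**Figure D3:**
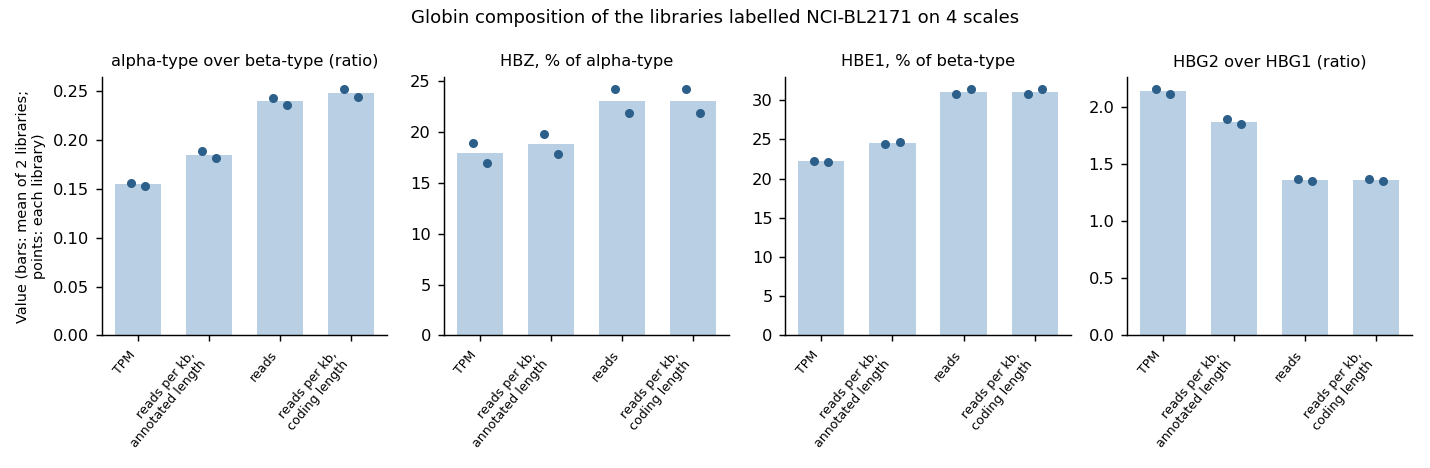
Globin composition of the 2 libraries labelled NCI-BL2171 on 4 scales (horizontal axis), with bars at the mean and points at each library; the vertical axes give ratios or percent and start at 0. The alpha-type to beta-type ratio is 0.154 in TPM and 0.239 in reads, and HBG2 over HBG1 is 2.13 in TPM and 1.36 in reads.

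The pseudogenes HBZP1 and HBBP1 and an overlapping gene were also highest in the libraries labelled NCI-BL2171. HBAP1, another pseudogene of the alpha cluster, had 0 reads in every library. HBZP1, a pseudogene of HBZ, had 0 and 0 TPM in RPMI-8226-R, 0 and 0.106 TPM in RPMI-8226, and 396 and 327 TPM in the libraries labelled NCI-BL2171. HBBP1, a pseudogene in the beta cluster, had 0.262 and 0.264 TPM in RPMI-8226-R, 0.186 and 0.355 TPM in RPMI-8226, and 96.6 and 94.3 TPM in the libraries labelled NCI-BL2171. ENSG00000284931, which spans both gamma genes, was at 0 in the 4 libraries of RPMI-8226-R and RPMI-8226, and at 601 and 753 TPM in the libraries labelled NCI-BL2171. BGLT3, a noncoding RNA gene between the gamma and delta genes, reached only 0.627 and 0.421 TPM there. HBBP1 lies within the annotated span of HBD, and estimated reads were fractional for both in the libraries labelled NCI-BL2171. They were 1509.44 and 1375.15 for HBBP1 and 1610.56 and 1328.85 for HBD, so the division between them is uncertain. Because 47.7% of the 31-base words of HBZ also occur in HBZP1, reads from these genes cannot be fully separated. Between RPMI-8226-R and RPMI-8226 no call is made for these genes, since none of the 4 pseudogenes and noncoding genes passed the filter on low counts with those lines alone. HBBP1 had 2 and 2 reads in RPMI-8226-R and 7 and 13 reads in RPMI-8226, and its TPM values overlapped.

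The question left to a test was whether the globin genes differed between RPMI-8226-R and RPMI-8226, a contrast the choice of genes did not use. HBA1 and HBA2 were higher in the bortezomib-resistant line. HBA1 had 1205 and 1387 reads in RPMI-8226-R and 371 and 426 reads in RPMI-8226, a log2 fold change of 1.60 ± 0.09 (SE, edgeR quasi-likelihood test, adjusted p = 7.8e-12), or 3.03-fold. HBA2 had 888 and 937 reads in RPMI-8226-R and 411 and 407 reads in RPMI-8226, a log2 fold change of 1.06 ± 0.08 (adjusted p = 2.8e-10 with edgeR), or 2.09-fold. Summed as 1 feature, they stood at 79.1 ± 2.03 CPM (counts per 1000000 effective library reads) in RPMI-8226-R and 31.002 ± 2.72 in RPMI-8226 (SD, n = 2 each), a log2 fold change of 1.35 ± 0.08 (adjusted p = 2.5e-12 with edgeR). Neither gene's libraries overlapped between these lines.

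Both calls stand against a background in which 65.6% of the 20081 genes tested passed an adjusted p of 0.05 between RPMI-8226-R and RPMI-8226, 28.5% of them higher and 37.2% lower. The share of genes called higher depended on the scale, at 43.4% of calls in reads and 60.7% of calls in a limma fit to log2(TPM + 1). The median log2 fold change of all genes was -0.12 in reads and 0.08 in TPM. The log2 fold changes of HBA1 and HBA2 were 1.97 and 1.32 in that TPM fit, so both exceeded the median of all genes on both scales.

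The balance between the 2 alpha genes also differed. Per read of HBA2, HBA1 had 1.36 and 1.48 reads in RPMI-8226-R, 0.903 and 1.05 reads in RPMI-8226, and 1.15 and 1.14 reads in the libraries labelled NCI-BL2171. RPMI-8226-R did not overlap RPMI-8226, but the difference was not tested, and the identical coding sequences leave only the untranslated ends to divide the reads.

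The beta-type genes were near the detection limit in both of these lines. HBZ, HBQ1 and the 5 beta-type genes passed the filter on low counts only through the libraries labelled NCI-BL2171, so their reads in RPMI-8226-R and RPMI-8226 are given as a description, with no call. HBE1 had 0 and 1 reads in RPMI-8226-R and 18 and 6 reads in RPMI-8226. The summed reads of RPMI-8226 exceeded those of RPMI-8226-R by a ratio of 22.1 per read sequenced, with an exact 95% counting interval of 3.61 to 910. HBG1 had 0 and 0 reads in RPMI-8226-R and 16 and 3 reads in RPMI-8226, which makes it at least 2.88-fold lower with a floor of 3 reads per library. HBG2 had 1 and 0 reads in RPMI-8226-R and 14.96 and 1 reads in RPMI-8226, and its libraries overlapped. Most HBE1, HBG1 and HBG2 reads of RPMI-8226 came from library 1.

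The adult genes HBD and HBB were equally low. HBD had 0 and 0 reads in RPMI-8226-R and 5 and 10 reads in RPMI-8226, at least 2.32-fold lower with the same floor. HBB had 0 and 0 reads in RPMI-8226-R and 8 and 8 reads in RPMI-8226, at least 2.46-fold lower. HBZ and HBQ1 had 0 reads in both lines, and HBM was too low to be tested. With RPMI-8226-R and RPMI-8226 fitted alone, HBA1 and HBA2 were the only globin genes tested.

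The beta-type reads of RPMI-8226 differed in make-up from those of the libraries labelled NCI-BL2171. HBD and HBB together were 21.0% and 64.3% of the 62.0 and 28 beta-type reads in RPMI-8226, and 0.284% and 0.288% of beta-type reads in the libraries labelled NCI-BL2171. HBZ was at 0 reads in RPMI-8226, against 33471 and 24064 reads in the libraries labelled NCI-BL2171. RPMI-8226 library 1 held 49.0 of the HBE1 and gamma reads of that line and library 2 held 10. The source of these reads was not tested.

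Most red cell markers had 0 or few reads in RPMI-8226-R and RPMI-8226, where HBA1 and HBA2 differed. ALAS2 (the red cell enzyme of haem synthesis), GATA1, HEMGN and EPB42 had 0 reads in all 4 libraries of RPMI-8226-R and RPMI-8226. Over the list of 13, 11 were at 0 in both libraries of RPMI-8226-R and 7 in both libraries of RPMI-8226. With RPMI-8226-R and RPMI-8226 fitted alone, 1 of the 13 was tested with edgeR, and 0 passed in either direction, also at an unadjusted p under 0.05. AHSP, the chaperone that binds free alpha chains, had 0 and 0 reads in RPMI-8226-R and 5 and 8 reads in RPMI-8226. It too entered the fit only through the libraries labelled NCI-BL2171, so no call is made. AHSP had 36 and 30 reads, or 4.73 and 4.52 TPM, in the libraries labelled NCI-BL2171. EIF2AK1, the haem-regulated kinase that ties globin translation to haem, was at 172 and 191 TPM in RPMI-8226-R, 161 and 175 TPM in RPMI-8226, and 209 and 243 TPM in the libraries labelled NCI-BL2171. Its log2 fold change of -0.25 between RPMI-8226-R and RPMI-8226 in reads (edgeR adjusted p = 8.9e-04) turned to 0.11 in the TPM fit, with no call. Of the 4 chaperone and assembly genes, HP and HPX were too low to be tested.

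The genes around the alpha cluster moved in both directions between RPMI-8226-R and RPMI-8226. Of 11 neighbours tested, 4 were higher and 5 lower, with a median log2 fold change of 0.17. The background shares of 28.5% and 37.2% would put about as many neighbours in each direction, so the counts are no result about this locus. SNRNP25, a spliceosomal protein gene on the telomeric side, was at 88.9 and 84.7 TPM in RPMI-8226-R and 30.1 and 24.97 TPM in RPMI-8226 (log2 fold change 1.32 ± 0.08, edgeR adjusted p = 8.8e-12). POLR3K, an RNA polymerase III subunit gene, was at 54.5 and 52.2 TPM in RPMI-8226-R and 22.6 and 23.5 TPM in RPMI-8226 (log2 fold change 0.88 ± 0.09, edgeR adjusted p = 2.0e-08). NPRL3, whose introns hold the main alpha-globin enhancers, was at 34.0 and 37.1 TPM in RPMI-8226-R and 15.1 and 18.1 TPM in RPMI-8226 (log2 fold change 0.73 ± 0.08, edgeR adjusted p = 6.2e-08). AXIN1, a scaffold of the Wnt pathway, had a log2 fold change of 0.46 and lost its call with an offset for effective length (0.17, edgeR adjusted p = 0.14).

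The 5 neighbours called lower included RHBDF1 and PDIA2. RHBDF1, an inactive rhomboid protease gene between SNRNP25 and NPRL3, had 7 and 9 reads in RPMI-8226-R and 42 and 34 reads in RPMI-8226 (log2 fold change -2.33 ± 0.35, edgeR adjusted p = 5.4e-06). PDIA2, a protein disulphide isomerase gene beyond HBQ1, was at 1.23 and 2.56 TPM in RPMI-8226-R and 22.4 and 24.1 TPM in RPMI-8226 (log2 fold change -3.95 ± 0.18, edgeR adjusted p = 8.9e-14). FAM234A was lower in reads but flipped to a log2 fold change of 0.02 in the TPM fit. In the libraries labelled NCI-BL2171 RHBDF1 reached 19.2 and 17.9 TPM, above every library of the other lines.

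**Figure D4:**
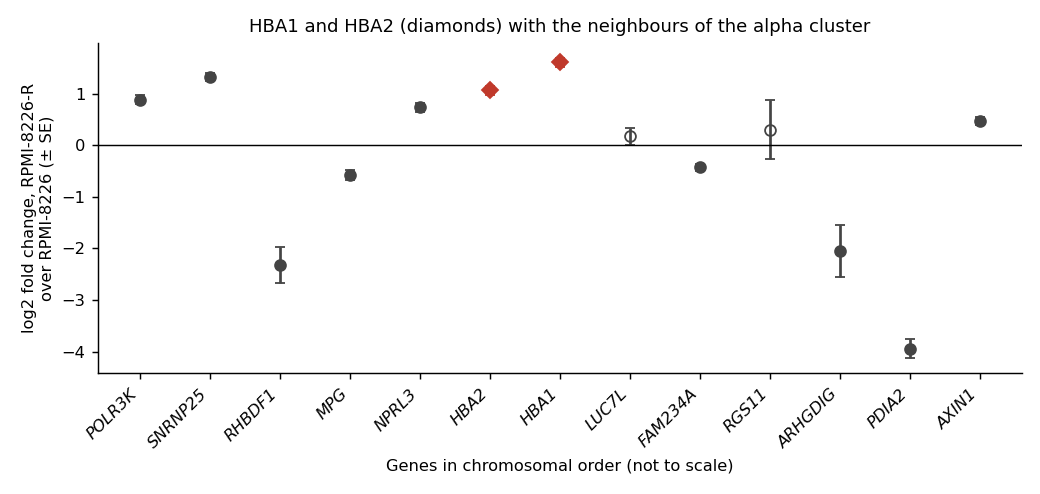
Log2 fold change of RPMI-8226-R over RPMI-8226 (vertical axis, error bars SE of the edgeR fit over 6 libraries) for HBA1, HBA2 and 11 neighbours in chromosomal order (horizontal axis, not to scale); filled symbols passed an adjusted p of 0.05. HBA1 and HBA2 lie above 1, SNRNP25 is at 1.32, and RHBDF1 and PDIA2 lie below -2.

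Around the beta cluster, 2 olfactory receptor genes had high levels in the libraries labelled NCI-BL2171 only. OR51B5 was at 0 and 0.048 TPM in RPMI-8226-R, 0.234 and 0.170 TPM in RPMI-8226, and 177 and 180 TPM in the libraries labelled NCI-BL2171. OR51B4 was at 0 and 0 TPM in RPMI-8226-R, 0 and 0.041 TPM in RPMI-8226, and 31.7 and 30.8 TPM in the libraries labelled NCI-BL2171. Both overlap the annotated spans of HBE1 and HBG2, which reach far upstream of their reference transcripts. With RPMI-8226-R and RPMI-8226 fitted alone, 6 of 21 neighbours were tested with edgeR, of which 0 were higher (0 also at an unadjusted p under 0.05) and 3 lower. With all 6 libraries in the fit 11 were tested, of which 0 were higher and 5 lower with edgeR, beside 28.5% and 37.2% of all genes, but 5 of the 11 entered only through the libraries labelled NCI-BL2171. In the TPM fit 1 was higher and 3 were lower. Over all genes, 12876 of 18323 were called with RPMI-8226-R and RPMI-8226 alone and 11587 of 20081 in the TPM fit. Of those calls, 48.6% and 60.7% were higher. TRIM68, a ubiquitin ligase gene, was at 1.19 and 1.27 TPM in RPMI-8226-R and 5.31 and 4.86 TPM in RPMI-8226 (log2 fold change -2.21 ± 0.14, edgeR adjusted p = 2.3e-11). TRIM6, another gene of that family, had 0 and 0 reads in RPMI-8226-R and 8 and 5 reads in RPMI-8226, and entered the fit only through the libraries labelled NCI-BL2171. RRM1, a ribonucleotide reductase subunit gene and the most abundant neighbour, was at 135 and 154 TPM in RPMI-8226-R, 109 and 123 TPM in RPMI-8226, and 230.4 and 227 TPM in the libraries labelled NCI-BL2171, and did not pass between RPMI-8226-R and RPMI-8226 (edgeR adjusted p = 0.25).

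The globins outside the clusters showed another pattern. MB, the gene for muscle myoglobin, was at 0.127 and 0.042 TPM in RPMI-8226-R, 3.21 and 3.54 TPM in RPMI-8226, and 0 in both libraries labelled NCI-BL2171. NGB, for neuroglobin, was at 0.158 and 0.156 TPM in RPMI-8226-R, 0.447 and 0.585 TPM in RPMI-8226, and 0 in both libraries labelled NCI-BL2171. Both were lower in RPMI-8226-R than in RPMI-8226 (log2 fold changes -5.53 ± 0.56 and -2.11 ± 0.57, edgeR adjusted p = 3.6e-08 and 0.0031), and NGB lost its call with DESeq2 (adjusted p = 0.075). CYGB and ADGB were too low to be tested.

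The activators known at globin loci divided into red cell factors and widely expressed factors. GATA1, the zinc finger factor of red cell identity, was at 0 in all libraries of RPMI-8226-R and RPMI-8226 and at 94.1 and 86.6 TPM in the libraries labelled NCI-BL2171. KLF1, which drives the adult beta gene, was below 0.1 TPM in all libraries of RPMI-8226-R and RPMI-8226, and at 31.03 and 27.9 TPM in the libraries labelled NCI-BL2171. TAL1 and NFE2 reached 25.3 and 25.7 TPM and 61.2 and 59.9 TPM there, and LMO2, which bridges TAL1 and GATA1, reached 17.5 and 19.3 TPM. The highest of the list in RPMI-8226-R and RPMI-8226 was TCF3, the widely expressed partner of TAL1, at 127 and 131 TPM in RPMI-8226-R, 103 and 89.9 TPM in RPMI-8226, and 115 and 115 TPM in the libraries labelled NCI-BL2171.

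Of 15 activators, 2 were higher and 6 lower in RPMI-8226-R than in RPMI-8226, beside 28.5% and 37.2% of all genes. With those lines alone 9 were tested, of which 3 were higher and 5 lower, and in the TPM fit 3 were higher and 2 lower. Over all genes, 12876 of 18323 were called with those lines alone and 11587 of 20081 in the TPM fit. Of those calls, 48.6% and 60.7% were higher. KLF2, a Kruppel-like factor, was at 37.6 and 42.1 TPM in RPMI-8226-R and 71.3 and 68.9 TPM in RPMI-8226 (log2 fold change -1.22 ± 0.09, edgeR adjusted p = 3.7e-10). KLF4 had fewer than 0.2 CPM in either line and entered the fit only through the libraries labelled NCI-BL2171, so no call is made. Set against the libraries labelled NCI-BL2171, 3 activators were higher and 9 lower in RPMI-8226-R, and 4 were higher and 10 lower in RPMI-8226. Over all genes tested, 39.2% were higher and 38.2% lower in RPMI-8226-R, and 41.1% were higher and 35.6% lower in RPMI-8226. These 2 comparisons share the libraries labelled NCI-BL2171. Only the 9 activators tested with RPMI-8226-R and RPMI-8226 alone passed the filter without those libraries. The rest entered through the libraries labelled NCI-BL2171, so the counts of lower activators were partly set by the filter and are no result.

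Among the repressors of embryonic and fetal globins, BCL11A was at 14.1 and 11.2 TPM in RPMI-8226-R, 6.14 and 7.54 TPM in RPMI-8226, and 0.212 and 0.172 TPM in the libraries labelled NCI-BL2171. Its log2 fold change between RPMI-8226-R and RPMI-8226 was 0.50 ± 0.13 (edgeR adjusted p = 0.0026), and the call was lost with an offset for effective length (adjusted p = 0.052). ZBTB7A, a second repressor of the gamma genes, was at 10.4 and 12.3 TPM in RPMI-8226-R, 5.53 and 5.73 TPM in RPMI-8226, and 3.78 and 5.07 TPM in the libraries labelled NCI-BL2171. MYB, which is known for restraining gamma expression, was at 23.4 and 24.4 TPM in RPMI-8226-R, 11.6 and 11.7 TPM in RPMI-8226, and 31.4 and 30.9 TPM in the libraries labelled NCI-BL2171. HIC2, which represses BCL11A, was at 0.488 and 0.617 TPM in RPMI-8226-R, 0.292 and 0.343 TPM in RPMI-8226, and 23.5 and 25.6 TPM in the libraries labelled NCI-BL2171. BCL11A was thus lowest and HIC2 highest in the libraries labelled NCI-BL2171. Between RPMI-8226-R and RPMI-8226, HIC2 had a log2 fold change of 0.42 that passed in the edgeR fit to all 6 libraries but not with those lines alone (edgeR adjusted p = 0.082), with the length offset (edgeR adjusted p = 0.052) or in the TPM fit (limma adjusted p = 0.15).

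Of 19 genes listed as repressors and corepressors, 8 were higher and 2 lower in RPMI-8226-R than in RPMI-8226, beside 28.5% and 37.2% of all genes. The list and the 8 include HIC2, which represses BCL11A, so the counts do not cover repressors of globin genes alone. With those lines alone 18 were tested, of which 10 were higher and 1 lower. In the TPM fit 11 were higher and 0 lower, also 0 lower at an unadjusted p under 0.05. DESeq2 called 8 higher and 1 lower, and with an offset for effective length 6 were higher and 2 lower. Over all genes, 12876 of 18323 were called with those lines alone and 11587 of 20081 in the TPM fit. DESeq2 called 11395 of 31955 genes, and the fit with the length offset called 11412 of 20081. Of those calls, 48.6%, 60.7%, 46.4% and 39.3% were higher, in that order, so part of the shift follows the scale. SOX6, a partner of BCL11A, was 1 of the 2 called lower, but it had 0 and 0 reads in RPMI-8226-R and 1 and 3 reads in RPMI-8226 and entered the fit only through the libraries labelled NCI-BL2171. NR2C2, an orphan nuclear receptor, was at 6.22 and 7.12 TPM in RPMI-8226-R and 2.77 and 1.95 TPM in RPMI-8226 (log2 fold change 1.15 ± 0.10, edgeR adjusted p = 2.9e-09). CHD4, the helicase of the NuRD corepressor complex and the most abundant gene of the list in these lines, was at 300.2 and 339 TPM in RPMI-8226-R and 224 and 218 TPM in RPMI-8226 (log2 fold change 0.33 ± 0.06, edgeR adjusted p = 1.5e-04), and lost its call with the length offset (edgeR adjusted p = 0.068). Against the libraries labelled NCI-BL2171, 10 were higher and 8 lower in RPMI-8226-R, beside 39.2% and 38.2% of all genes, and 9 were higher and 8 lower in RPMI-8226, beside 41.1% and 35.6%.

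Of 6 fetal state factors tested, 4 were higher and 1 lower in RPMI-8226-R than in RPMI-8226, beside 28.5% and 37.2% of all genes. IGF2BP1, an RNA-binding protein of fetal tissues, was at 1.38 and 1.66 TPM in RPMI-8226-R, 0.399 and 0.652 TPM in RPMI-8226, and 15.5 and 17.9 TPM in the libraries labelled NCI-BL2171 (log2 fold change 2.12 ± 0.13 for RPMI-8226-R over RPMI-8226, edgeR adjusted p = 1.4e-11). With the length offset its log2 fold change fell to 1.20 (edgeR adjusted p = 9.3e-04). LIN28B, which blocks let-7 maturation and promotes fetal globin, was at 0.558 and 0.629 TPM in RPMI-8226-R, 0.140 and 0.124 TPM in RPMI-8226, and 7.75 and 8.40 TPM in the libraries labelled NCI-BL2171 (log2 fold change 1.82 ± 0.23, edgeR adjusted p = 6.1e-07). IGF2BP3 was at 25.9 and 28.2 TPM in RPMI-8226-R, 7.34 and 7.73 TPM in RPMI-8226, and 10.3 and 10.3 TPM in the libraries labelled NCI-BL2171. ARID3A, a DNA-binding factor known from B cells, was at 19.1 and 22.0 TPM in RPMI-8226-R, 8.88 and 8.60 TPM in RPMI-8226, and 34.0 and 36.3 TPM in the libraries labelled NCI-BL2171. ARID3B was the factor called lower.

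**Figure D5:**
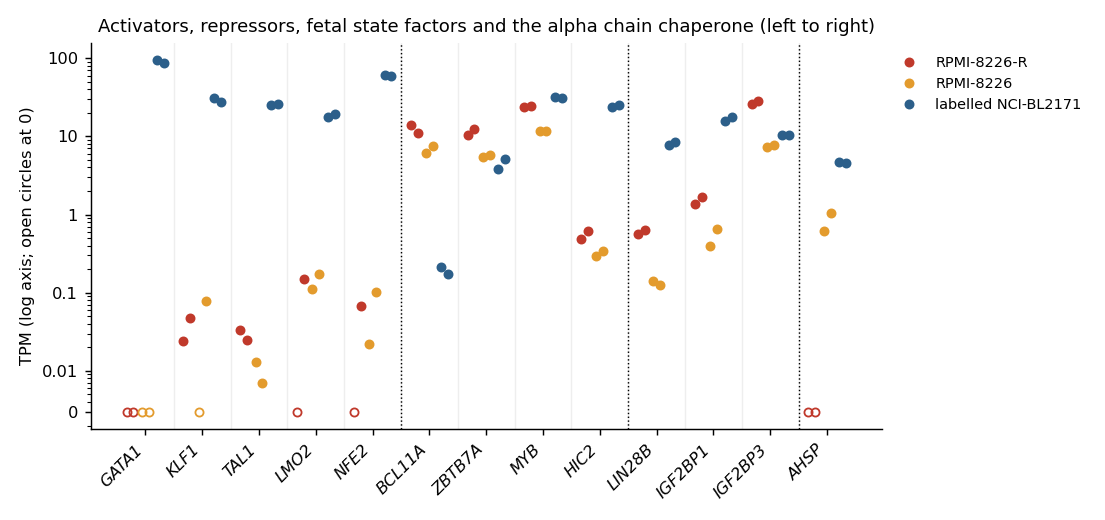
Level in TPM (vertical log axis, 0 drawn as open circles at the bottom) of selected activators, repressors and fetal state factors of globin genes and of the chaperone AHSP, 2 libraries per line. GATA1 is at 0 in all 4 libraries of RPMI-8226-R and RPMI-8226, and BCL11A is below 0.3 TPM only in the libraries labelled NCI-BL2171. HIC2, which represses BCL11A, is drawn among the repressors.

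The genes whose levels followed HBG2 most closely over the 6 libraries were identified by Euclidean distance between log2(TPM + 1) profiles. They were GSTP1, a glutathione transferase gene, at a distance of 5.92, TFPI, an inhibitor of coagulation, at 7.46, PRAME, a cancer-testis antigen gene, at 7.48, and ENSG00000284931 at 7.85. GSTP1 was at 0 and 0 TPM in RPMI-8226-R, 1.98 and 4.36 TPM in RPMI-8226, and 2060 and 1906 TPM in the libraries labelled NCI-BL2171. With log2(TPM + 0.1), these 4 genes were again the nearest, GSTP1 first and ENSG00000284931 last. With the summed globin profile, which includes the alpha genes of RPMI-8226-R and RPMI-8226, none of them was among the 5 nearest.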

How the data were processed

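Total RNA was depleted of ribosomal RNA and sequenced from 3 untreated cell lines with 2 libraries each. Per the file headers, each deposited table gives a length, an effective length, TPM and an estimated count of reads for 61544 genes. The submitters' processing notes name GRCh38.p13; program, strand setting and annotation were not given in the sources used here, so antisense and overlapping genes cannot be told apart. The deposited TPM values are per length and sum to 1000000 in each library. The deposited estimated counts were rounded for testing, and 46 pseudoautosomal copies were added to their X counterparts.

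Groups were taken from the sample titles. edgeR 4.0.16 in R 4.3.3 (TMM, filterByExpr with a minimum count of 10 and a minimum total of 15, robust quasi-likelihood, 3 residual degrees of freedom) was fitted to all 6 libraries, and p-values were adjusted by Benjamini-Hochberg over 20081 genes. The coefficient of variation between libraries of a line, beyond counting noise, was estimated at 6.81%, and those libraries may be technical repeats. The procedure was also run on simulated counts in which few genes were changed, whereas most genes tested were called here. That run therefore cannot show how the procedure performs on these data. Alternatives used DESeq2 1.42.0, limma 3.58.1 on log2(TPM + 1), an offset for effective length, no filter, RPMI-8226-R and RPMI-8226 alone, a replicate block, and each library left out. Summing near-identical copies and scaling by coding length were added after seeing the data. Replicates of 1 line differed beyond sampling noise (chi-square per gene of 3.47 to 11.0).

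Gene positions, transcripts and printed sequences came from GENCODE 29; coding sequences were aligned globally, and shared words had 31 bases. The genes and lists were chosen with earlier results of these data known. Named genes were all 10 globins, overlapping genes, those of each list with the highest level or largest fold change, and the 5 nearest in pattern to HBG2, 1 of which is not reported here. Other genes were named after their values were seen.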

Additional observations from a re-analysis of the deposited data

How the results depend on the processing

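HBA1 and HBA2 kept their direction and call between RPMI-8226-R and RPMI-8226 under every alternative run. The log2 fold change of HBA1 was 1.65 with DESeq2, 1.62 with the length offset, 1.97 in the TPM fit, 1.61 without a filter, 1.68 with those lines alone and 1.46 to 1.75 with 1 library left out. That of HBA2 was 0.97 to 1.32 over these settings. The alpha-type to beta-type ratio of the libraries labelled NCI-BL2171 moved from 0.154 in TPM to 0.239 in reads, 0.185 per annotated length, 0.247 per coding length (chosen after seeing the data) and 0.159 with pseudogenes and overlapping genes added. HBZ moved from 17.9% to 23.0% of the alpha-type sum in reads and per coding length, and to 21.3% with pseudogenes added. HBE1 moved from 22.2% to 31.04% of the beta-type sum in reads and per coding length, 24.5% per annotated length and 21.9% with overlapping genes added. HBG1 and HBG2 moved from 77.6% to 68.7%, 75.3% and 77.8% under the same settings. The effect of the length scale is by construction, since deposited effective lengths differ between genes. With 1 library left out, the ratio was 0.153 to 0.156, HBZ 16.9% to 18.9%, HBE1 22.16% to 22.18%, and the gamma pair 77.63% to 77.65%.

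Low counts limited the other globin genes, which were tested only through the libraries labelled NCI-BL2171. Without RPMI-8226 library 1 the log2 fold change of HBE1 was -3.42, that of HBG1 -4.72 and that of HBG2 -0.97. RPMI-8226 library 2 had only 6, 3 and 1 reads of these genes, so the sizes of these changes are no result. Genes called between RPMI-8226-R and RPMI-8226 numbered 13177, against 11395 with DESeq2, 11587 in the TPM fit and 11600 to 13192 with 1 library left out.

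The labels tie same-numbered libraries of the lines by nothing but the number. Deviations of same-numbered libraries correlated at 0.06 to 0.10, which cannot decide whether they shared a culture or day. With a replicate block 13045 genes were called and HBA1 had a log2 fold change of 1.60 and HBA2 of 1.06.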
